A study of Mus musculus with 18 samples.

Results

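The angiotensin II receptors, the precursor and enzyme that make the hormone, and the Gq proteins and RGS inhibitors through which its signal runs were followed in cultured mouse neonatal ventricular cardiac fibroblasts. The group comprised 10 genes taken by symbol from 18264 listed genes, namely Agtr1a, Agtr2, Agtrap, Agt, Ace, Gnaq, Gna11, Plcb1, Rgs2 and Rgs4. RNA sequencing gave 18 libraries in 6 groups of 3. OE-Foxm1 cells overexpressed Foxm1, a forkhead factor that drives cell cycle genes, and OE-NC cells were the control of that arm. In the knockdown arm, si-Foxm1+Ang-II cells received siRNA against Foxm1 together with angiotensin II, Ang-II cells received the hormone, si-Foxm1 cells received the siRNA, and si-NC cells were the negative control. The labels give neither the dose nor the duration of the hormone, nor the overexpression vector, and leave unstated if a control siRNA was given along with the hormone in Ang-II cells. They also do not say whether replicates came from separate cultures, so p-values measure only the spread between these libraries, which may be technical. Libraries of bulk cells were measured, in which fewer cells of a type and less RNA per cell cannot be told apart.

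Angiotensinogen, the product of Agt, is cleaved by renin and then by the angiotensin-converting enzyme Ace to give angiotensin II. In rodents the hormone acts mainly on the type 1a receptor Agtr1a, which couples through the Gq family subunits Gnaq and Gna11 to phospholipase C beta enzymes such as Plcb1, and so to calcium release and protein kinase C. RGS proteins such as Rgs2 and Rgs4 speed up GTP hydrolysis on the alpha subunits and thereby end the signal, and Agtrap binds the type 1 receptor and promotes its internalization. In cardiac fibroblasts this pathway is known for driving proliferation and matrix production.

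The promoters of Agt, Ace and Rgs4 are shown because Agt and Ace changed with both the siRNA and the hormone, Rgs4 changed only with the hormone among the comparisons tested, and these were the members with a TATA element just before the start of transcription. Each stretch is the 250 bases before the start in the RefSeq promoter set of build GRCm38.p6, written on the strand of the gene, with the TATA element in capitals. The set matched 9 of the 10 genes with 10 windows, 2 of them for Ace, of which the first is printed. Agt lies on chromosome 8 (chr8:124569707-124569956, minus strand), Ace on chromosome 11 (chr11:105967698-105967947, plus strand) and Rgs4 on chromosome 1 (chr1:169747643-169747892, minus strand).
Agt: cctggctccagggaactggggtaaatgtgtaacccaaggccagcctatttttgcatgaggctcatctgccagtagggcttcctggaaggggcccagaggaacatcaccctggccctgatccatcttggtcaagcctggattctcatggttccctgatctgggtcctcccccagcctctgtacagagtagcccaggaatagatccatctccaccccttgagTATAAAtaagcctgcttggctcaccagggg
Ace: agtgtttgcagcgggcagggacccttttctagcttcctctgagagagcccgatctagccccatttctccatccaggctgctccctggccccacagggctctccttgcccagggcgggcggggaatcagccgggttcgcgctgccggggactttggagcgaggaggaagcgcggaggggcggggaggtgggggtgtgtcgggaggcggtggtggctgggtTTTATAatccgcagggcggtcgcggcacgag
Rgs4: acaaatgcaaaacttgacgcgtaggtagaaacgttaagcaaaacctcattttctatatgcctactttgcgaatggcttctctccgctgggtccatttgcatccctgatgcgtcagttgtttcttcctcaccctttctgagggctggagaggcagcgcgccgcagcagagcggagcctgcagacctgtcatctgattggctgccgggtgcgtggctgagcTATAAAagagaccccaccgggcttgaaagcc

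The element TATAAA, searched on both strands, lay at bases -30 to -25 from the start in Agt and at bases -31 to -26 in Rgs4. In Ace it stood on the other strand, read as TTTATA, at bases -31 to -26. These were 3 of 10 member windows, against 12.4% of 32851 windows in the whole promoter set. The forkhead core TAAACA was in 0 of the 10 windows (12.03% of all windows). The cell cycle homology region TTTGAA was in 1, that of Agtr2 (15.99% of all windows), and the AP-1 site TGANTCA was in 0 (6.75% of all windows). No match in these windows overlapped another, and a match or its absence describes the letters only.

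Values are FPKM, fragments counted on a gene divided by its length and by the total of the library, so levels can be compared between genes per length. Whole fragment counts recovered from the table gave 14988993 to 19343343 fragments per library. Between replicates the squared difference in counts averaged 1.69 to 5.46 times what counting error gives (12536 genes), and the pairs with Ang-II replicate 3 stood highest, at 5.03 and 5.46. Foxm1 itself averaged 455 ± 49 FPKM in OE-Foxm1 and 16.6 ± 0.8 FPKM in OE-NC, and in the knockdown arm 3.32 ± 0.26 FPKM in si-Foxm1+Ang-II, 4.64 ± 0.88 FPKM in Ang-II, 5.97 ± 0.79 FPKM in si-Foxm1 and 10.1 ± 0.41 FPKM in si-NC (SD, n = 3 each). Foxm1 was thus called lower with the hormone alone (-0.99, limma adjusted p = 2.63e-06) as well as with the siRNA (-0.68, adjusted p = 4.33e-05) and with the siRNA under the hormone (-0.38, adjusted p = 0.00452). All 10 fibroblast markers were above 0 in every group, from Pdgfra at 2.83 to 12.2 FPKM over the libraries to Postn at 928 to 1112 FPKM. Their sum was 3559 to 3608 FPKM in OE-Foxm1 and 3054 to 3246 FPKM in OE-NC, and 4050 to 4187 FPKM in si-Foxm1+Ang-II, 4139 to 4395 FPKM in Ang-II, 3232 to 3411 FPKM in si-Foxm1 and 3407 to 3586 FPKM in si-NC. With the hormone 2 of the 10 were called higher and 6 lower, beside 15.2 and 29.2 percent of all tested genes. In siRNA-treated cells the hormone gave 2 higher and 7 lower, beside 12.9 and 34.6 percent. With the siRNA 2 were higher and 3 lower (48.5 and 17.2 percent of all genes), and 1 and 7 under median-of-ratios scaling between libraries. Under the hormone the siRNA gave 2 and 2 (44.0 and 17.4 percent of all genes), and 1 and 6 under that scaling. Overexpression gave 7 higher and 1 lower, beside 27.1 and 28.0 percent of all genes, with medians of 0.26 and, over all genes, -0.00. Cardiomyocyte markers were abundant too, with a summed level of 5622 to 6020 FPKM in si-Foxm1 and 4254 to 4393 FPKM in si-Foxm1+Ang-II, 8548 to 9370 FPKM in Ang-II and 11454 to 12386 FPKM in si-NC. In the overexpression arm that sum was 7159 to 7431 FPKM in OE-Foxm1 and 6328 to 6798 FPKM in OE-NC. Of the 10 cardiomyocyte markers 0 were called higher and 9 lower with the siRNA, with medians of -1.13 and, over all genes, 0.11. Under the hormone the siRNA gave 1 higher and 9 lower, with medians of -1.02 and 0.09. The hormone gave 1 higher and 9 lower alone and 0 and 9 in siRNA-treated cells. Overexpression gave 5 and 1, beside 27.1 and 28.0 percent of all genes, and the other shares are as above. Both counts of 0 were also 0 at an unadjusted p under 0.05 and with voom. The part of other cell types in the values below was not tested.

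Differences were tested with limma on log2(FPKM + 1), over all genes with a mean of at least 1 FPKM in the arm, and called at an adjusted p under 0.05 (Benjamini-Hochberg over all genes). Log2 fold changes carry their standard error, with 3 libraries in each group, and the added 1 FPKM shrinks those of scarce genes. In each arm 7 of the 10 genes passed the filter. Agtr2, Plcb1 and Rgs2 fell below it in the knockdown arm, and Agtr1a, Agtr2 and Plcb1 in the overexpression arm. Agtr1a passed in the knockdown arm through the groups with siRNA, since it was under 1 FPKM in every si-NC and Ang-II library. Rgs2 passed in the overexpression arm mainly through OE-NC. The counts and medians below therefore describe the genes that passed and support nothing about all 10.

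With the siRNA, 5 of the 7 tested genes were called higher, Agtr1a, Agtrap, Agt, Ace and Gnaq, and 0 lower (1 at an unadjusted p under 0.05, and 0 with voom), where 48.5 percent of all 11180 tested genes were called higher and 17.2 percent lower. The median log2 fold change was 0.49 over the tested members and 0.11 over all tested genes. Median-of-ratios scaling, which moves the all-gene median by -0.11, gave 2948 genes higher and 3277 lower in place of 5418 and 1924. Relative to the all-gene median the changes were 0.78 for Agtr1a, 0.66 for Agt, 0.49 for Ace, 0.38 for Agtrap, 0.05 for Gnaq, -0.19 for Gna11 and -0.24 for Rgs4. Thus the first 4 genes stood 0.38 or more above that median and Gnaq stood near it, and their rank among all genes was not tested. Under median-of-ratios scaling Gnaq was no longer called (0.04, adjusted p = 0.361) while Gna11 was called lower (-0.20, adjusted p = 2.18e-04). Quantile normalization had the same effect on both calls, with 0.06 for Gnaq (adjusted p = 0.210) and -0.15 for Gna11 (adjusted p = 0.00258).

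Angiotensin II alone, set against the same si-NC libraries, gave 1 member called higher, Rgs4, and 3 lower, Agt, Ace and Gna11, where 15.2 percent of all tested genes were called higher and 29.2 percent lower. The medians were -0.03 over the tested members and -0.03 over all tested genes. Median-of-ratios scaling gave 2483 genes higher and 2424 lower in place of 1702 and 3268, with the member counts at 1 and 3. The siRNA under angiotensin II, si-Foxm1+Ang-II against Ang-II, gave 5 members called higher, again Agtr1a, Agtrap, Agt, Ace and Gnaq, and 0 lower (0 at an unadjusted p under 0.05, and 0 with voom), where 44.0 percent of all tested genes were called higher and 17.4 percent lower. There the medians were 0.21 and 0.09, and median-of-ratios scaling gave 3077 genes higher and 3118 lower in place of 4918 and 1942. The hormone in siRNA-treated cells, si-Foxm1+Ang-II against si-Foxm1, gave 1 member higher, Rgs4, and 3 lower, Agtr1a, Agt and Ace, where 12.9 percent of all tested genes were called higher and 34.6 percent lower. Here the medians were -0.09 and -0.07, and the scaling gave 2466 genes higher and 2262 lower in place of 1441 and 3873. These 4 comparisons share groups pairwise, so their values are given side by side and were not correlated.

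The interaction, that is, the siRNA effect under the hormone minus that without it, was called for 1 member, Ace, which was lower, and for 0 members higher (0 at an unadjusted p under 0.05, and 0 with voom), where 0.403 percent of all tested genes were called higher and 0.519 percent lower. The other 6 tested members gave interaction values between -0.40 for Agtr1a and 0.22 for Rgs4, none of which passed the test. Median-of-ratios scaling gave 67 genes higher and 48 lower in place of 45 and 58, with Ace still the member called. In OE-Foxm1 against OE-NC, 3 members were called higher, Agtrap, Ace and Gnaq, and 1 lower, Rgs2, where 27.1 percent of all 11259 tested genes were called higher and 28.0 percent lower. The medians there were -0.06 over the members and -0.00 over all genes.

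**Figure D1:**
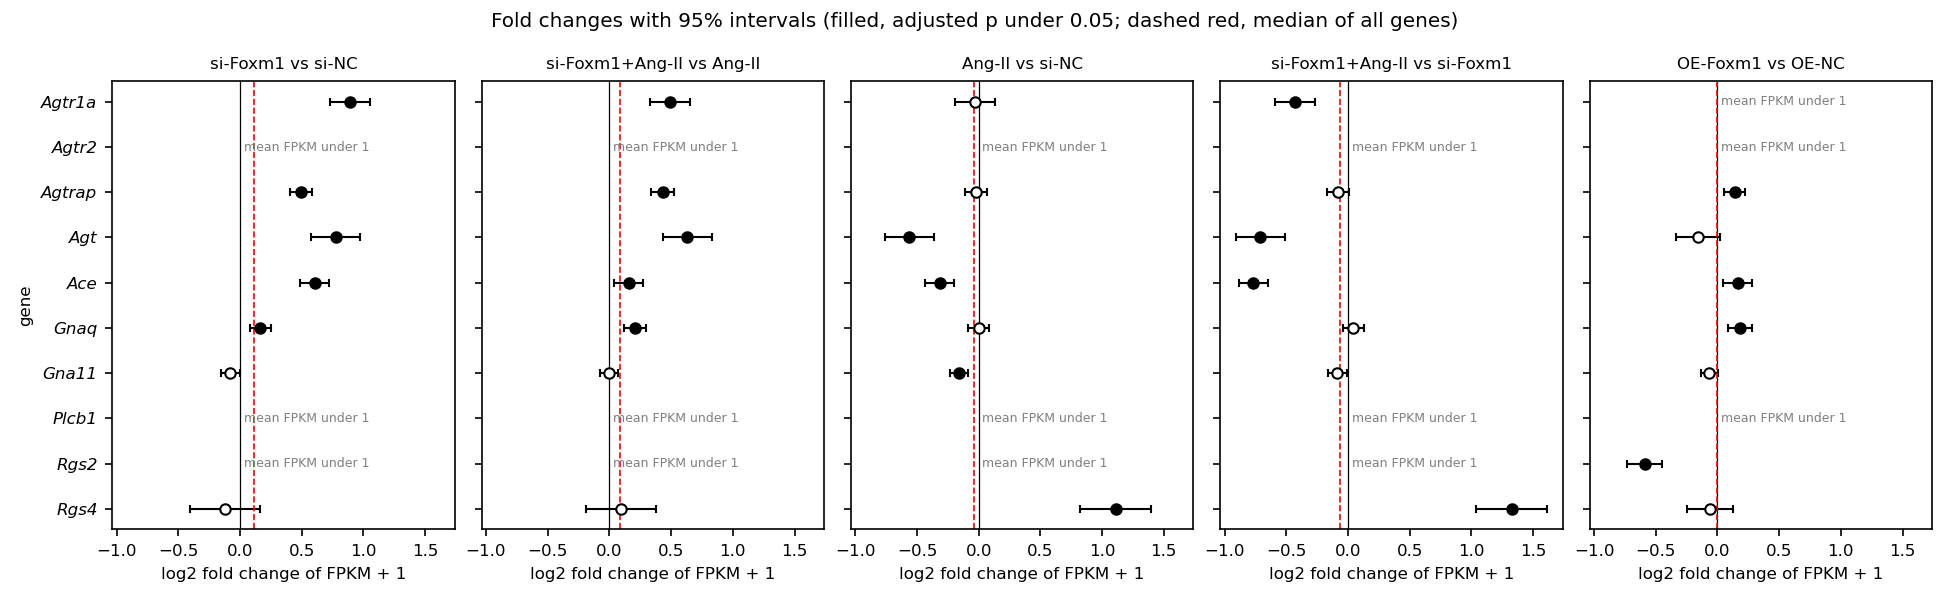
Log2 fold change of FPKM + 1 for each gene (rows) in 5 comparisons (panels), with 95% intervals; filled points passed an adjusted p of 0.05, the dashed red line is the median of all tested genes, and genes with a mean under 1 FPKM in the arm carry no point. Agtr1a, Agtrap and Agt lie right of both lines in the pair of siRNA panels, and Rgs4 lies above 1 in the pair of hormone panels.

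Agtr1a, the main angiotensin II receptor of rodents, was about 3 times as abundant after the siRNA, and the hormone alone was not followed by a change that passed the test. Its level was 2.40, 2.02 and 1.97 FPKM in si-Foxm1, against 0.577, 0.689 and 0.801 FPKM in si-NC. Every si-Foxm1 library lay above every si-NC library, with a ratio of mean FPKM of 3.09 and a log2 fold change of 0.89 ± 0.08 (adjusted p = 3.24e-07). With the filter at 0.1 FPKM, which Agtr1a passed in every library, the change was 0.89 ± 0.07 (adjusted p = 3.97e-07). On the recovered counts, where no pseudocount compresses a low gene, limma-voom gave 1.62 (adjusted p = 5.84e-08). These levels rest on 90 to 109 fragments in a si-Foxm1 library and on 26 to 37 in a si-NC library.

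Under angiotensin II, Agtr1a was at 1.31, 1.48 and 1.16 FPKM in si-Foxm1+Ang-II, against 0.737, 0.562 and 0.654 FPKM in Ang-II. The groups again did not overlap, with a ratio of means of 2.02 and a log2 change of 0.49 ± 0.08 (adjusted p = 8.16e-05). With the filter at 0.1 FPKM limma gave 0.49 ± 0.07 (adjusted p = 8.29e-05). Ang-II alone differed from si-NC by -0.03 ± 0.08 (adjusted p = 0.760), with a 95% interval of -0.19 to 0.13. At this level the added 1 FPKM shrinks both, so the interval is narrower than one for the ratio of FPKM would be. On the recovered counts voom gave -0.08 (adjusted p = 0.793). In siRNA-treated cells the hormone went with less Agtr1a, -0.43 ± 0.08 for si-Foxm1+Ang-II against si-Foxm1 (adjusted p = 3.38e-04). The interaction of -0.40 ± 0.11 did not pass the test (adjusted p = 0.102), so the pair of siRNA effects was not shown to differ.

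OE-Foxm1 held 0.815, 0.915 and 0.838 FPKM of Agtr1a, against 1.202, 1.22 and 0.900 FPKM in OE-NC. The ranges overlapped at the lowest OE-NC library, and a two-sided exact permutation test of mean FPKM gave p = 0.2, where 0.1 is the smallest p for 3 against 3. In the order of group means, si-Foxm1 stood highest with no overlap, then came si-Foxm1+Ang-II, next OE-NC, next OE-Foxm1, whose neighbours overlapped, and last si-NC and Ang-II, which overlapped each other and lay below the rest. Across all 18 libraries, the genes whose centred log2(FPKM + 1) profile was nearest to that of Agtr1a among 11021 genes were Kbtbd12, Urgcp and Pts. Their root mean square distances were 0.0933, 0.105 and 0.113, set beside a spread of 0.325 in the profile of Agtr1a itself.

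The other receptors were at or near the limit of detection. Agtr2, the second angiotensin II receptor, gave 22 fragments over all 18 libraries and 0 in 6 of them, among them all 3 Ang-II libraries. A count of 0 there allows up to 0.0553 to 0.0575 FPKM by counting error alone, and the highest library, si-NC replicate 3, held 4 fragments or 0.0736 FPKM. The Ang-II libraries lay below the si-NC libraries, which held 2, 1 and 4 fragments, without overlap (two-sided exact permutation p = 0.1, the smallest possible), and limma with no filter gave -0.061 (95% interval -0.11 to -0.013, adjusted p = 0.0558), which was not called. At this depth the level in si-NC itself rests on 7 fragments, and in the other 4 pairwise comparisons the groups overlapped. Agtr1b, the near-identical copy of the type 1 receptor gene in rodents, gave 9 fragments in all and 0 in 11 libraries, beside 892 fragments of Agtr1a. Reads that fit both copies may have been assigned to either or dropped, which the sources used here do not state. The genes nearest to Agtr2 by the same measure were R3hdm2, Mfsd14a and Pdcd6ip, with distances of 0.0308, 0.0354 and 0.0354, no smaller than the spread of 0.0306 of Agtr2 itself.

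Agtrap, the receptor-associated protein that promotes internalization of the type 1 receptor, was higher with the siRNA in both settings. It reached 17.9, 19.4 and 17.4 FPKM in si-Foxm1, against 12.4, 12.4 and 13.2 FPKM in si-NC, which is 0.49 ± 0.04 on the log2 scale (adjusted p = 3.40e-07). The si-Foxm1+Ang-II libraries held 17.4, 17.1 and 16.9 FPKM and the Ang-II libraries 12.3, 12.2 and 12.9 FPKM, a change of 0.43 ± 0.04 (adjusted p = 1.30e-06). In both comparisons the groups were far from overlapping. The hormone gave -0.02 ± 0.04 without the siRNA (adjusted p = 0.697; 0.02 under either median-of-ratios or quantile scaling) and -0.08 ± 0.04 with it (adjusted p = 0.118).

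In the overexpression arm Agtrap was at 16.4, 17.0 and 15.8 FPKM in OE-Foxm1, against 14.6, 14.8 and 14.95 FPKM in OE-NC. The ranges did not overlap, and the change of 0.14 ± 0.04 was small but called (adjusted p = 0.00972). Agtrap was thus called higher both with Foxm1 siRNA and with Foxm1 overexpression, each against its own control. OE-NC lay above si-NC in Agtrap, although the control groups belong to different arms and were not tested against each other.

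**Figure D2:**
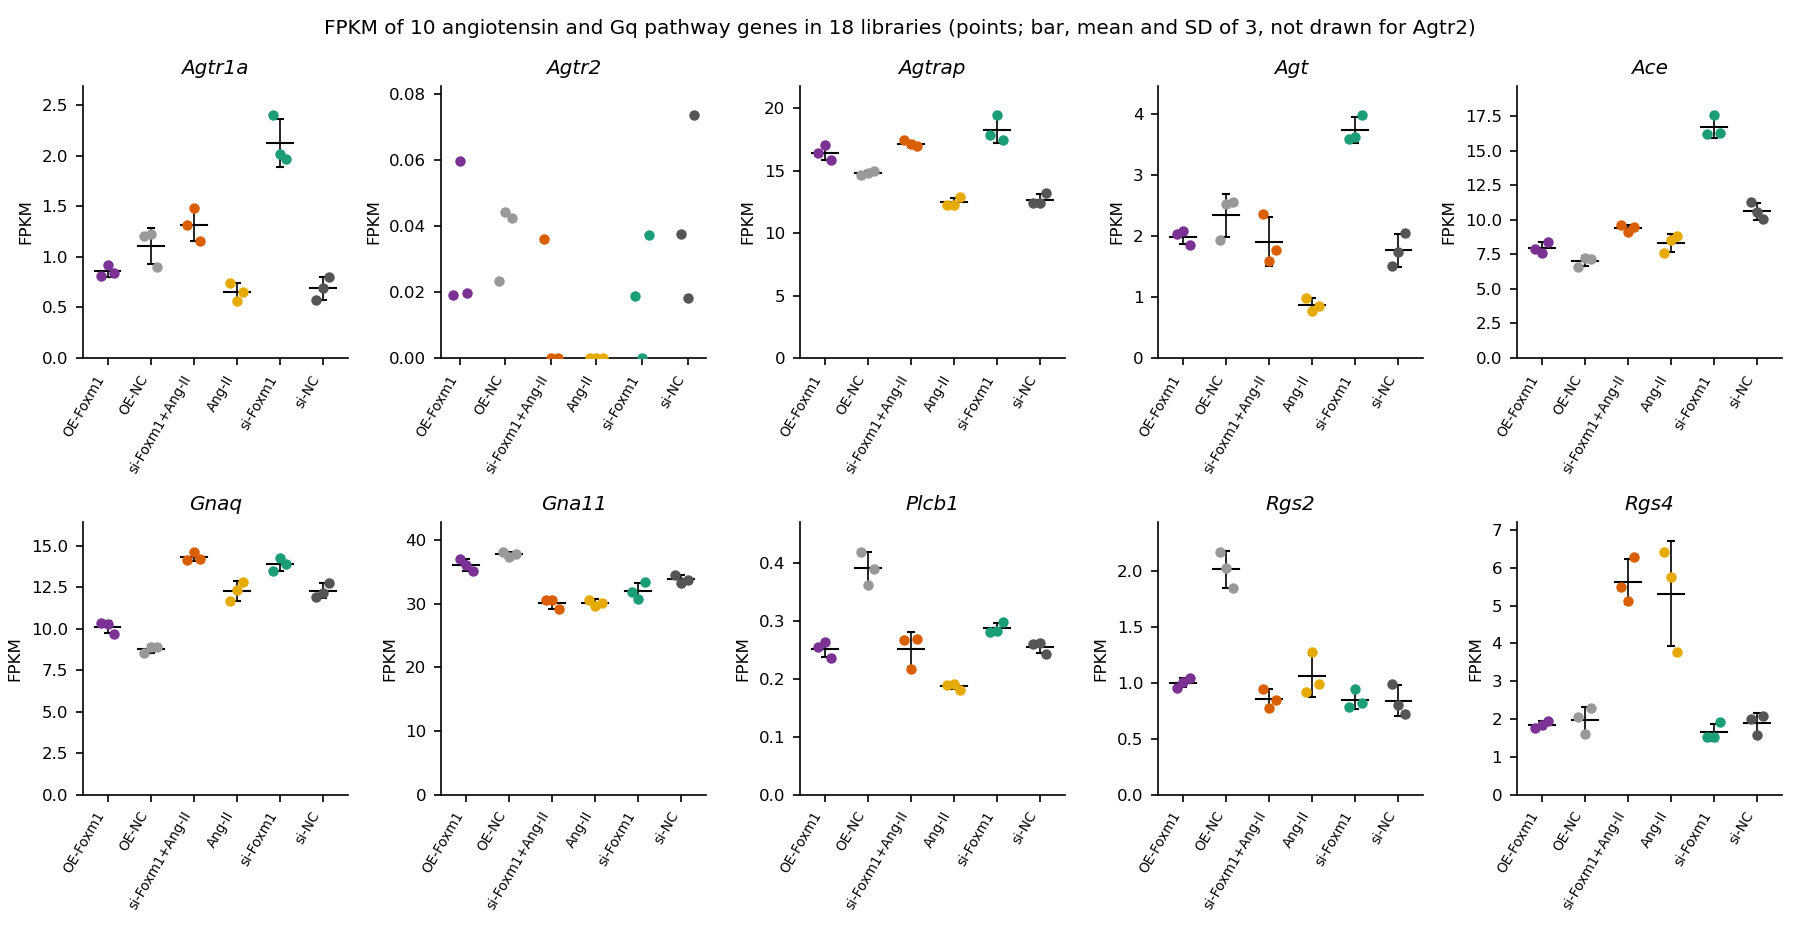
FPKM of each of the 10 genes (panels, linear axes from 0) in the 18 libraries; points are libraries, and bars show the mean and SD of 3 (not drawn for Agtr2, which was at 0 in 6 libraries). Agtr1a, Agt and Ace peak in si-Foxm1, Rgs4 stands at 3.76 FPKM or more in the libraries with the hormone and at 2.28 or less elsewhere, and Rgs2 and Plcb1 are highest in OE-NC.

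Agt, which encodes the precursor angiotensinogen, moved in opposite directions with the siRNA and the hormone. Its level was 3.59, 3.63 and 3.98 FPKM in si-Foxm1, against 1.51, 1.74 and 2.05 FPKM in si-NC. Without overlap, the ratio of means was 2.11 and the log2 change 0.78 ± 0.09 (adjusted p = 7.38e-06). Ang-II held 0.987, 0.767 and 0.855 FPKM, below every si-NC library, at a ratio of 0.491 and a change of -0.56 ± 0.09 (adjusted p = 2.15e-04). On the recovered counts that change was -1.01, against the -0.56 of the FPKM scale.

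In cells with both treatments Agt was at 2.36, 1.59 and 1.78 FPKM in si-Foxm1+Ang-II. This was above Ang-II by 0.63 ± 0.09 (adjusted p = 5.17e-05) and below si-Foxm1 by -0.71 ± 0.09 (adjusted p = 2.98e-05). The interaction of -0.15 ± 0.13 did not pass the test (adjusted p = 0.662), and its sign turned to 0.03 on the recovered counts. The overexpression arm showed 2.03, 2.08 and 1.86 FPKM in OE-Foxm1, against 1.93, 2.53 and 2.56 FPKM in OE-NC. The groups overlapped and the change of -0.16 ± 0.08 was not called (adjusted p = 0.119), but without OE-NC replicate 1 it was -0.25 and called (adjusted p = 0.0106).

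Ace, the converting enzyme that releases angiotensin II and that endothelial cells carry on their surface, was highest in si-Foxm1 and was lower wherever the hormone was added. It was at 16.2, 17.6 and 16.3 FPKM in si-Foxm1, against 11.3, 10.6 and 10.03 FPKM in si-NC, a change of 0.61 ± 0.05 with no overlap (adjusted p = 5.73e-07). Ang-II libraries held 7.62, 8.55 and 8.86 FPKM, all below si-NC, a change of -0.32 ± 0.05 (adjusted p = 3.36e-04). Libraries with both treatments held 9.62, 9.11 and 9.45 FPKM, which was -0.77 ± 0.05 against si-Foxm1 alone (adjusted p = 1.54e-07) with wide separation.

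The siRNA effect on Ace was smaller under the hormone. It was 0.15 ± 0.05 for si-Foxm1+Ang-II against Ang-II (adjusted p = 0.0238), and that call ended under median-of-ratios scaling (0.07, adjusted p = 0.295), under quantile normalization (0.05, adjusted p = 0.4002), and without Ang-II replicate 1 (0.10, adjusted p = 0.122), si-Foxm1+Ang-II replicate 1 (0.14, adjusted p = 0.0757) or si-Foxm1+Ang-II replicate 3 (0.15, adjusted p = 0.0576). The test of the difference itself gave -0.45 ± 0.08 (adjusted p = 0.0144). When each of the 12 libraries was left out in turn it ranged from -0.51 to -0.41, and only without si-Foxm1+Ang-II replicate 2 did it miss the threshold (-0.43, adjusted p = 0.0537).

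Endothelial markers moved in the same order as Ace. The summed FPKM of 8 endothelial markers, all above 0 in every group, was 93.2 to 98.4 in si-Foxm1 and 75.8 to 83.1 in si-NC, 65.8 to 73.0 in si-Foxm1+Ang-II and 56.5 to 63.6 in Ang-II. With the siRNA 5 of the 8 were called higher and 0 lower, beside 48.5 percent of all genes higher and 17.2 percent lower, and the counts were 4 and 1 under either other scaling. With the hormone 0 were called higher and 6 lower, beside 15.2 percent and 29.2 percent of all genes. In the interaction 0 of the 8 were called, beside 0.403 percent of all genes higher and 0.519 percent lower. With so few calls over all genes, a count of 0 among 8 says little. The median interaction was -0.06 over the 8 markers and -0.02 over all genes, and Ace was at -0.45. For each of these counts of 0, limma without other scaling gave 0 at an unadjusted p under 0.05 and voom gave 0. The part of endothelial cells in the Ace values was not tested. In the annotation of build GRCm38 an opposite-strand gene, Gm11651, overlaps an exon of Ace by up to 173 bases. It is not listed in the table, and whether counting used strand is not given in the sources used here.

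**Figure D3:**
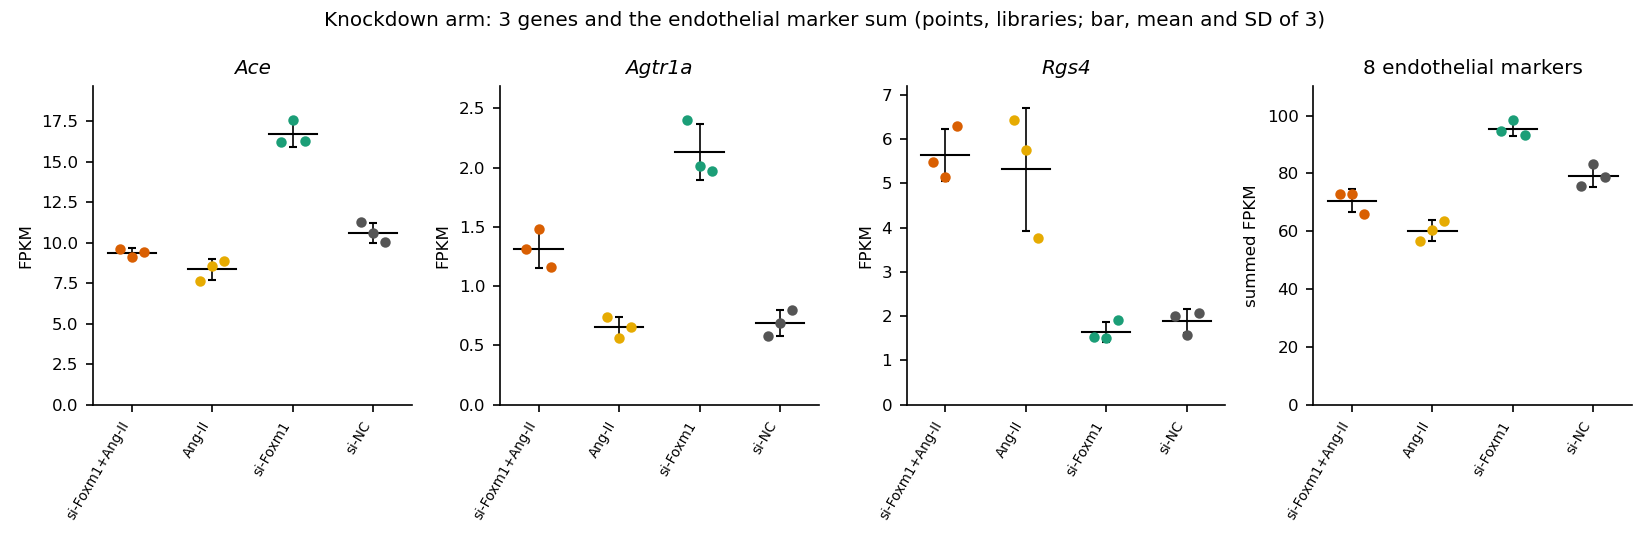
FPKM of Ace, Agtr1a and Rgs4 and the summed FPKM of 8 endothelial markers in the 4 groups of the knockdown arm; points are libraries, and bars show the mean and SD of 3 on linear axes from 0. Ace and the endothelial sum take the same order of groups, with si-Foxm1 highest and Ang-II lowest, while Rgs4 is high in the pair of groups with the hormone.

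In OE-Foxm1 Ace was at 7.87, 7.57 and 8.41 FPKM, against 6.58, 7.25 and 7.13 FPKM in OE-NC, so that the groups were close but did not overlap. The change of 0.16 ± 0.05 was called (adjusted p = 0.0220). It was not called without OE-Foxm1 replicate 3 (0.13, adjusted p = 0.0789) or without OE-NC replicate 1 (0.13, adjusted p = 0.0827). The endothelial sum was 72.8 to 80.7 FPKM in OE-Foxm1 and 60.5 to 67.4 FPKM in OE-NC. There 3 of the 8 markers were called higher and 0 lower, beside 27.1 and 28.0 percent of all genes. At an unadjusted p under 0.05 in limma 0 were lower, and 1 was with voom.

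The alpha subunits Gnaq and Gna11, which carry the receptor's signal to phospholipase C, showed no tested change beyond 0.21 on the log2 scale in either direction. Gna11 was the most abundant member at 29.1 to 38.2 FPKM, and its highest group mean was 1.26 times its lowest. For Gnaq that ratio was 1.63, between si-Foxm1+Ang-II and OE-NC, which belong to different arms. Gnaq was at 13.5, 14.3 and 13.9 FPKM in si-Foxm1, against 11.9, 12.2 and 12.8 FPKM in si-NC, a change of 0.17 ± 0.04 (adjusted p = 0.00270) that was close to the all-gene median of 0.11. Under the hormone it was at 14.1, 14.7 and 14.2 FPKM in si-Foxm1+Ang-II, against 11.7, 12.4 and 12.8 FPKM in Ang-II, a change of 0.21 ± 0.04 (adjusted p = 5.57e-04). Neither pair of groups overlapped. The hormone gave -0.00 ± 0.04 without the siRNA (adjusted p = 0.993; 0.05 under median-of-ratios scaling) and 0.04 ± 0.04 with it (adjusted p = 0.418; called at 0.12, adjusted p = 0.0269, under median-of-ratios scaling).

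With overexpression Gnaq was at 10.3, 10.3 and 9.69 FPKM in OE-Foxm1, against 8.53, 8.90 and 8.91 FPKM in OE-NC, a change of 0.18 ± 0.04 (adjusted p = 0.00440) with no overlap. Gna11 was at 30.7, 29.6 and 30.2 FPKM in Ang-II, against 34.6, 33.2 and 33.7 FPKM in si-NC, and this change of -0.16 ± 0.03 was called (adjusted p = 0.00170). The other Gna11 changes were small. They were -0.08 ± 0.03 with the siRNA (adjusted p = 0.0592; -0.11 and adjusted p = 0.0180 without si-Foxm1 replicate 3), -0.00 ± 0.03 with the siRNA under the hormone (adjusted p = 0.946; -0.10 and adjusted p = 0.0266 under median-of-ratios scaling), -0.09 ± 0.03 with the hormone in siRNA-treated cells (adjusted p = 0.0523; -0.11 and adjusted p = 0.0231 without si-Foxm1 replicate 2) and -0.07 ± 0.03 with overexpression (adjusted p = 0.102).

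Plcb1, a phospholipase C that Gq proteins activate, was scarce, at 0.181 to 0.420 FPKM, but its gene model of 20641 bases still gave 68 to 132 fragments per library. It was at 0.190, 0.191 and 0.181 FPKM in Ang-II, against 0.260, 0.262 and 0.243 FPKM in si-NC. It was at 0.268, 0.217 and 0.268 FPKM in si-Foxm1+Ang-II, above every Ang-II library. OE-Foxm1 held 0.254, 0.264 and 0.237 FPKM and OE-NC 0.420, 0.363 and 0.390 FPKM, again without overlap. In each of these 3 comparisons the two-sided exact permutation test gave p = 0.1, the smallest it can give. It gave the same p for si-Foxm1 against si-NC and for si-Foxm1+Ang-II against si-Foxm1, so non-overlap did not single out any comparison. Mean FPKM in the last was 0.251 ± 0.030 in si-Foxm1+Ang-II and 0.287 ± 0.009 in si-Foxm1, again without overlap.

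With the filter lowered to 0.1 FPKM, limma on log2(FPKM + 1) called Plcb1 in OE-Foxm1 against OE-NC only (-0.15, adjusted p = 0.0249). On the recovered counts with that filter, a choice made after seeing the data, voom gave -0.63 for OE-Foxm1 against OE-NC (adjusted p = 8.27e-05), -0.44 for Ang-II against si-NC (adjusted p = 0.00798) and 0.41 for si-Foxm1+Ang-II against Ang-II (adjusted p = 0.00943). The siRNA alone gave 0.17 on that scale (adjusted p = 0.202), from 0.282, 0.283 and 0.298 FPKM in si-Foxm1 and the si-NC values above, which did not overlap. An opposite-strand gene, 9630028H03Rik, overlaps an exon of Plcb1 by up to 178 bases in the GRCm38 annotation and is not listed in the table.

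Rgs4, an RGS protein that acts on Gi and Gq alpha subunits, was the 1 tested member called higher with angiotensin II, in both settings. It was at 6.43, 5.75 and 3.76 FPKM in Ang-II, against 2.01, 1.57 and 2.07 FPKM in si-NC. Every Ang-II library lay above every si-NC library, with Ang-II replicate 3 the lowest of its group, at a ratio of means of 2.82 and a change of 1.11 ± 0.13 (adjusted p = 1.41e-05). Leaving out 1 library at a time gave changes between 0.98 and 1.30, the highest without Ang-II replicate 3. In siRNA-treated cells it was at 5.48, 5.13 and 6.29 FPKM in si-Foxm1+Ang-II, against 1.52, 1.51 and 1.91 FPKM in si-Foxm1, a ratio of 3.42 and a change of 1.33 ± 0.13 (adjusted p = 3.23e-06).

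The siRNA was not followed by a called change in Rgs4, with -0.12 ± 0.13 against si-NC (95% interval -0.41 to 0.16, adjusted p = 0.430) and 0.09 ± 0.13 under the hormone (95% interval -0.19 to 0.38, adjusted p = 0.562). The second of these values turned to -0.10 without Ang-II replicate 3. The interaction was 0.22 ± 0.19 (adjusted p = 0.653). OE-Foxm1 held 1.75, 1.83 and 1.95 FPKM and OE-NC 2.04, 1.60 and 2.28 FPKM, which overlapped (-0.06 ± 0.08, adjusted p = 0.579). The summed FPKM of 8 smooth muscle and pericyte markers, cells that also express RGS genes, was 294 to 325 in Ang-II and 308 to 321 in si-NC, and 274 to 286 in si-Foxm1+Ang-II and 274 to 290 in si-Foxm1. With the hormone 2 of the 7 tested markers were called higher, 1 of them Rgs5, and 4 lower. The shares of all genes there were 15.2 and 29.2 percent. In siRNA-treated cells the hormone again gave 2 and 4, beside 12.9 and 34.6 percent. With the siRNA 0 were higher and 5 lower, beside 48.5 and 17.2 percent, and again 0 and 5 under the hormone, beside 44.0 and 17.4 percent. Those counts of 0 were also 0 at an unadjusted p under 0.05 in limma and with voom. In the overexpression arm the summed FPKM was 234 to 239 in OE-Foxm1 and 272 to 277 in OE-NC. There 1 of the 7 tested markers was called higher and 3 lower, beside 27.1 and 28.0 percent. The part of these cells in the Rgs4 values was not tested.

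Rgs2, an RGS protein selective for Gq, was lower in OE-Foxm1 than in OE-NC. It was at 0.955, 1.01 and 1.04 FPKM in OE-Foxm1, against 2.17, 2.02 and 1.85 FPKM in OE-NC, a ratio of 0.497 and a change of -0.59 ± 0.06 with no overlap (adjusted p = 2.83e-05). Among all 6 groups OE-NC was the one that stood apart, since the group means of the knockdown arm lay between 1.06 FPKM in Ang-II and 0.838 FPKM in si-NC, near that of OE-Foxm1. In Ang-II Rgs2 was at 0.915, 1.28 and 0.988 FPKM, against 0.990, 0.804 and 0.720 FPKM in si-NC, and the groups overlapped. The two-sided exact permutation test gave p = 0.3 for that comparison and p = 0.9 for si-Foxm1 against si-NC, both in groups of 3.

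The surrounding pathway was followed in 5 lists of other genes, given as counts and median log2 fold changes. Over all tested genes the medians were 0.11 with the siRNA, -0.03 with the hormone, 0.09 with the siRNA under the hormone, -0.07 with the hormone in siRNA-treated cells and -0.00 with overexpression. The shares of all genes called higher and lower in these comparisons were 48.5 and 17.2 percent, 15.2 and 29.2 percent, 44.0 and 17.4 percent, 12.9 and 34.6 percent, and 27.1 and 28.0 percent, in the same order, and each count below is to be read beside them. Among enzymes that make or degrade angiotensins and the other angiotensin receptors, 11 of 18 genes were tested, and Ren1 (renin), Cma1 and Mas1 were under 1 FPKM in every library. With the siRNA 7 were called higher and 2 lower, with a median of 0.25 against 0.11 for all genes (5 higher and 3 lower under median-of-ratios scaling). The largest was Mcpt4, a chymase of mouse mast cells, at 21.5 ± 0.10 FPKM in si-Foxm1 and 2.02 ± 0.23 FPKM in si-NC (2.90 ± 0.07, adjusted p = 2.97e-12). Under the hormone it was at 26.2 ± 0.31 FPKM in si-Foxm1+Ang-II and 3.82 ± 0.48 FPKM in Ang-II (2.501 ± 0.07, adjusted p = 6.03e-12). Of 5 mast cell markers in the table, Tpsb2 and Ms4a2 were at 0 in all 18 libraries and Cpa3 did not exceed 0.115 FPKM. The summed marker level, most of it Kit, was 4.14 to 4.41 FPKM in si-Foxm1 and 3.72 to 3.80 FPKM in si-NC.

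Lnpep, the receptor for angiotensin IV and an aminopeptidase, was lower with the siRNA (-0.30 ± 0.03, adjusted p = 1.50e-06) and with the siRNA under the hormone (-0.33 ± 0.03, adjusted p = 7.45e-07). In that second comparison 6 of the list were higher and 3 lower. With the hormone alone 4 were higher and 4 lower (4 and 2 under median-of-ratios scaling). Ctsd, an aspartic protease, was among the higher ones at 1282 ± 1 FPKM in Ang-II and 984 ± 13 FPKM in si-NC (0.38 ± 0.03, adjusted p = 6.99e-08), as was Mcpt4 (0.67 ± 0.07, adjusted p = 2.15e-06). In siRNA-treated cells the hormone gave 4 higher and 3 lower (6 and 2 under that scaling), with Ctsd at 0.22 ± 0.03 (adjusted p = 1.05e-05) and the aminopeptidase Anpep at -0.68 ± 0.09 (adjusted p = 2.69e-05). Anpep was lower with the hormone alone as well (-0.64 ± 0.09, adjusted p = 4.36e-05). Ctsd was also the 1 gene of the list called in the interaction (-0.16 ± 0.04, adjusted p = 0.0489), and it was not called there under median-of-ratios scaling (adjusted p = 0.0759). In OE-Foxm1 6 of the list were higher and 0 lower (limma, with 0 lower at an unadjusted p under 0.05 and 0 with voom), with the smallest p for Mcpt4 (0.77 ± 0.09, adjusted p = 4.08e-05) and Ctsd (0.11 ± 0.03, adjusted p = 0.00521). The list's medians were 0.01 with the hormone, 0.24 with the siRNA under the hormone, 0.03 with the hormone in siRNA-treated cells and 0.11 with overexpression.

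Of 21 other Gq subunits and effectors 15 were tested. With the siRNA 6 were higher and 4 lower, a balance that turned to 4 and 6 under median-of-ratios scaling, with a median of 0.00 against 0.11 for all genes. Prkch, a protein kinase C isoform, was higher with the siRNA (0.72 ± 0.06, adjusted p = 1.84e-07) and with the siRNA under the hormone (0.54 ± 0.06, adjusted p = 3.24e-06). Itpr2, a receptor for inositol trisphosphate that releases calcium, was likewise higher in both (0.39 ± 0.04, adjusted p = 2.27e-06, and 0.36 ± 0.04, adjusted p = 5.15e-06). Under the hormone the siRNA gave 6 higher and 3 lower (4 and 4 under that scaling).

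With the hormone alone 2 effectors were higher and 5 lower, which became 4 and 2 under that scaling. The calcium-release receptor Itpr3 was higher with the hormone (0.40 ± 0.04, adjusted p = 7.31e-06) and also in siRNA-treated cells (0.54 ± 0.04, adjusted p = 6.91e-07). Prkce was lower with the hormone, both alone (-0.33 ± 0.05, adjusted p = 5.42e-05) and in siRNA-treated cells (-0.25 ± 0.05, adjusted p = 4.63e-04). In siRNA-treated cells the hormone gave 4 higher and 5 lower (5 and 4 under that scaling), and Prkcd, a further protein kinase C, was higher (0.25 ± 0.03, adjusted p = 1.54e-05). Prkcd was also the 1 effector called in the interaction (0.24 ± 0.04, adjusted p = 0.0198). In OE-Foxm1 4 were higher and 3 lower. Among them were Arhgef25, an exchange factor activated by Gq (0.44 ± 0.05, adjusted p = 4.03e-05), and Trio, another such factor (-0.38 ± 0.05, adjusted p = 9.39e-05). The effectors' medians were -0.09 with the hormone, 0.07 with the siRNA under the hormone, -0.05 with the hormone in siRNA-treated cells and 0.05 with overexpression.

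Of 15 other RGS genes 7 were tested. With the hormone 2 were higher and 5 lower, with a median of -0.22 against -0.03 for all genes, and 2 and 2 under quantile normalization. Rgs5, which is also 1 of the 8 smooth muscle and pericyte markers, was at 2.51 ± 0.18 FPKM in Ang-II and 1.23 ± 0.15 FPKM in si-NC (0.66 ± 0.07, adjusted p = 3.80e-06), while Rgs6 was lower (-0.48 ± 0.07, adjusted p = 1.09e-04). In siRNA-treated cells the hormone gave 2 higher and 4 lower (2 and 2 under quantile normalization), and those higher were Rgs5 (0.62 ± 0.07, adjusted p = 6.30e-06) and Rgs19 (0.31 ± 0.06, adjusted p = 5.31e-04). Rgs6 was among those lower (-0.25 ± 0.07, adjusted p = 0.0103). Rgs19 was the other gene called higher with the hormone alone (0.23 ± 0.06, adjusted p = 0.00465), so that Rgs5 and Rgs19 of this list, like Rgs4, were called higher with the hormone in both settings. With the siRNA 2 were higher and 1 lower (2 and 4 under median-of-ratios scaling), Rgs12 being higher (0.36 ± 0.06, adjusted p = 8.35e-05) and Rgs10 lower (-0.41 ± 0.08, adjusted p = 3.37e-04). Under the hormone the siRNA gave 3 higher and 1 lower (2 and 3 under that scaling), with Rgs12 at 0.33 ± 0.06 (adjusted p = 1.77e-04) and Rgs10 at -0.38 ± 0.08 (adjusted p = 7.28e-04). In OE-Foxm1 3 were higher and 1 lower, with Rgs19 at 0.38 ± 0.06 (adjusted p = 2.18e-04) and Rgs12 at -0.32 ± 0.05 (adjusted p = 2.04e-04). The other medians of the RGS list were -0.12 with the siRNA, 0.06 with the siRNA under the hormone, -0.24 with the hormone in siRNA-treated cells and 0.08 with overexpression.

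Of 9 receptor kinases, arrestins and receptor partners 7 were tested. Grk5, a kinase that desensitizes G protein-coupled receptors, was higher with the hormone at 28.2 ± 0.9 FPKM in Ang-II and 21.0 ± 0.9 FPKM in si-NC (0.41 ± 0.04, adjusted p = 1.01e-06). It was also higher in siRNA-treated cells given the hormone (0.49 ± 0.04, adjusted p = 2.20e-07). Grk5 was lower with the siRNA, both alone (-0.37 ± 0.04, adjusted p = 1.32e-06) and under the hormone (-0.29 ± 0.04, adjusted p = 1.51e-05). The related Grk6 moved the other way, lower with the hormone (-0.28 ± 0.04, adjusted p = 4.76e-05) and higher with the siRNA, both alone (0.39 ± 0.04, adjusted p = 1.26e-06) and under the hormone (0.51 ± 0.04, adjusted p = 1.18e-07). Mtus1, which encodes a protein that binds Agtr2, was lower with the siRNA, both alone (-0.41 ± 0.05, adjusted p = 1.32e-05) and under the hormone (-0.57 ± 0.05, adjusted p = 7.69e-07). The arrestin Arrb1 was lower with the hormone, both alone (-0.33 ± 0.06, adjusted p = 8.90e-04) and in siRNA-treated cells (-0.31 ± 0.06, adjusted p = 0.00112). The counts higher and lower were 3 and 3 with the siRNA (2 and 4 under median-of-ratios scaling), 2 and 2 with the hormone, 2 and 2 with the siRNA under the hormone (1 and 2 under that scaling), and 1 and 3 with the hormone in siRNA-treated cells (3 and 1 under that scaling). In OE-Foxm1 1 was higher and 3 lower, among them Grk2 (-0.28 ± 0.03, adjusted p = 8.67e-05) and Grk3 (-0.32 ± 0.05, adjusted p = 4.00e-04). The medians were -0.01 with the siRNA, -0.05 with the hormone, 0.07 with the siRNA under the hormone, 0.03 with the hormone in siRNA-treated cells and -0.07 with overexpression.

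Of 23 other Gq-coupled receptors 10 were tested in the knockdown arm and 12 in the overexpression arm. With the hormone 0 were higher and 8 lower (0 and 7 under median-of-ratios scaling, 1 and 6 under quantile normalization; 0 higher at an unadjusted p under 0.05 in limma and 0 with voom), with a median of -0.28 against -0.03 for all genes. Ednrb, an endothelin receptor, was at 0.944 ± 0.343 FPKM in Ang-II and 4.16 ± 0.37 FPKM in si-NC (-1.42 ± 0.10, adjusted p = 1.03e-07). S1pr3, a sphingosine-1-phosphate receptor, was at 1.11 ± 0.18 FPKM in Ang-II and 2.55 ± 0.25 FPKM in si-NC (-0.75 ± 0.08, adjusted p = 5.32e-06). In siRNA-treated cells the hormone gave 2 higher and 6 lower, with Ednrb at -1.37 ± 0.10 (adjusted p = 1.64e-07) and S1pr3 at -0.96 ± 0.08 (adjusted p = 6.91e-07). Agtr1a was not among the receptors called lower with the hormone alone.

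With the siRNA 1 of these receptors was higher, as Agtr1a was, and 5 were lower, with a median of -0.17 against 0.11 for all genes. The thromboxane receptor Tbxa2r was at 1.45 ± 0.14 FPKM in si-Foxm1 and 3.88 ± 0.47 FPKM in si-NC (-0.99 ± 0.08, adjusted p = 1.35e-07), and the endothelin receptor Ednra was lower by -0.45 ± 0.06 (adjusted p = 3.89e-05). Under the hormone the siRNA gave 1 higher and 3 lower (0 and 3 under median-of-ratios scaling), with Tbxa2r at -0.74 ± 0.08 (adjusted p = 2.47e-06) and Ednra at -0.44 ± 0.06 (adjusted p = 5.94e-05). The thrombin receptor F2r was called in the interaction (0.25 ± 0.05, adjusted p = 0.0422), but not under quantile normalization (adjusted p = 0.0581). In OE-Foxm1 1 receptor was higher and 6 lower, with S1pr3 at -1.18 ± 0.12 (adjusted p = 2.10e-05) and the ATP and ADP receptor P2ry1 at -0.76 ± 0.07 (adjusted p = 6.71e-06). The other medians of these receptors were 0.02 with the siRNA under the hormone, -0.22 with the hormone in siRNA-treated cells and -0.12 with overexpression.

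**Figure D4:**
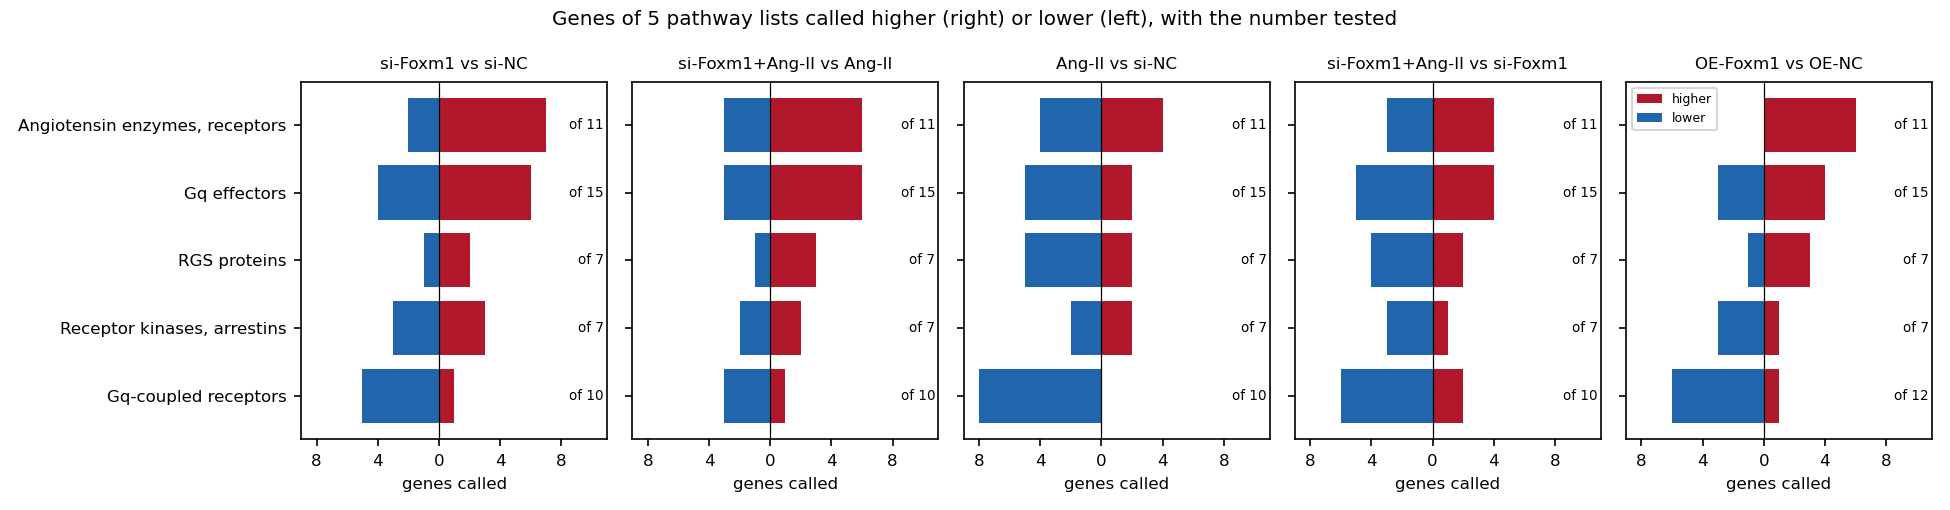
Number of genes of 5 pathway lists called higher (red, right) or lower (blue, left) in 5 comparisons, with the number tested at the right of each row. Other Gq-coupled receptors were called lower more often than higher in each panel. With the hormone 0 were higher and 8 lower of 10, where 15.2 percent of all genes were higher and 29.2 percent lower. The angiotensin-processing list had 7 of 11 called higher with the siRNA, where 48.5 percent of all genes were, and 6 of 11 with overexpression, where 27.1 percent were.

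Macrophage markers moved with the siRNA as well. Their summed FPKM over 8 markers was 117 to 145 in si-Foxm1 and 228 to 234 in si-NC, and 114 to 133 in si-Foxm1+Ang-II and 279 to 309 in Ang-II. In the overexpression arm it was 252 to 284 FPKM in OE-Foxm1 and 170 to 189 FPKM in OE-NC. Of 5 tested markers 0 were called higher and 5 lower with the siRNA, beside 48.5 and 17.2 percent of all genes. Under the hormone the siRNA again gave 0 and 5, beside 44.0 and 17.4 percent. The hormone gave 3 and 0 alone (15.2 and 29.2 percent) and 1 and 1 in siRNA-treated cells (12.9 and 34.6 percent). Those counts of 0 were also 0 at an unadjusted p under 0.05 in limma and with voom. Overexpression gave 4 and 1, beside 27.1 and 28.0 percent. Whether this bears on any of the 10 genes was not tested.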

How the data were processed

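Messenger RNA of cultured mouse cardiac fibroblasts was sequenced in 18 libraries. Per the labels' protocols, 4 μg of total RNA with an integrity number of at least 7 went into stranded TruSeq mRNA libraries. Per the submitters' processing notes, fastp, HISAT2 and HTSeq were run by the authors against mm39, with versions, annotation and strand setting not given in the sources used here. Values were deposited by the authors as FPKM, which divide fragments by gene length and by the library's total, and 0 columns lacked a sample.

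Whole fragment counts, library totals and gene lengths were recovered from FPKM ratios, and every one of the 17960 genes above 0 came out whole to within 0.02. The smallest whole counts that fitted were taken, so a gene above 0 in only 1 library comes out whole by construction. A count of 0 allows up to 3 fragments, and such limits cover counting error only. The main test used log2(FPKM + 1) without scaling between libraries in limma 3.58.1 (R 4.3.3, eBayes with a mean-variance trend). The 12 knockdown-arm libraries entered 1 fit and the 6 overexpression libraries another. Tests covered genes averaging 1 FPKM or more, with Benjamini-Hochberg adjustment over all of them. The fit was tested on simulated data. Genes under the filter were given as levels, with a two-sided exact permutation test of mean FPKM. Promoters and figures were handled in Python 3.11.15 with numpy 2.4.6, pandas 2.3.3 and matplotlib 3.10.9.

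All 10 members are named, and of each pathway list the 2 called genes with the smallest p in each comparison, and the 3 genes nearest in profile to Agtr1a and to Agtr2. Ren1, Cma1 and Mas1 were named in addition, after their values were seen, as were Plcb1 values on recovered counts. Members, lists and motifs were chosen with earlier results of these data known. The alternatives were 0.1 as pseudocount, 0.1 FPKM or none as filter, median-of-ratios scaling, quantile normalization, fits of all 6 groups or of the compared groups alone, a replicate block, voom on the recovered counts, and each library left out in turn. Promoter windows came from RefSeq and exon overlaps from GENCODE M21, both on GRCm38 rather than the authors' build. No protein sequence was used here.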

Additional observations from a re-analysis of the deposited data

Results flagged for a closer look

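The siRNA effect on Ace differed between cells with and without angiotensin II. It was 0.15 for si-Foxm1+Ang-II against Ang-II and 0.61 for si-Foxm1 against si-NC, and the test of the difference itself gave -0.45 (limma, adjusted p = 0.0144). Mean FPKM was 9.39 in si-Foxm1+Ang-II and 8.35 in Ang-II, and 16.7 in si-Foxm1 and 10.6 in si-NC. It was the only one of the 7 tested members whose interaction was called, and without si-Foxm1+Ang-II replicate 2 it missed the threshold (adjusted p = 0.0537).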

How the results depend on the processing

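Results for the 7 tested members and the counts of calls were recomputed under 9 or 10 settings and with each library left out in turn. With the compared groups alone in the fit, Agtr1a fell under the 1 FPKM filter for Ang-II against si-NC. It also did so for si-Foxm1+Ang-II against Ang-II, so it was not tested in those 2 fits. Excluding the leave-one-out settings, 385 values kept their direction and side of the threshold or stayed close, 4 member calls were lost, 8 were gained and 7 values turned sign.

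With the siRNA, median-of-ratios scaling and quantile normalization gave 2948 and 3430 genes higher, 3277 and 2975 lower, and 1 member lower each. With Ang-II quantile normalization gave 2679 genes higher. With the siRNA under Ang-II median-of-ratios scaling gave 3077 genes higher, 3118 lower and 1 member lower. For si-Foxm1+Ang-II against si-Foxm1 the 2 scalings gave 2466 and 2425 genes higher, 2262 and 2331 lower, and 2 members higher each. Of values that turned sign, none called, Ang-II against si-NC gave 0.025 and 0.024 for Agtrap, 0.047 and 0.044 for Gnaq, and 0.079 for Agtr1a under quantile normalization alone. One fit of all 6 groups gave 1 member lower with the siRNA, and 76 genes higher and 93 lower in the interaction. The interaction counts were 19 and 38 with no filter, 72 higher under quantile normalization, 112 and 117 with voom, and 118 and 116 with voom at the 0.1 filter, a choice made after seeing the data. Agt turned to 0.031 and 0.032 there under the voom fits. In OE-Foxm1 2 members were lower with the filter at 0.1, with none, and with voom at 0.1. The cause was not tested.

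Leaving out 1 library gave 10 to 108 genes higher and 27 to 88 lower in the interaction, the extremes without si-Foxm1+Ang-II replicate 2 and without Ang-II replicate 3. Counts moved by over 1.5 times also without si-Foxm1+Ang-II replicate 3 (21 and 35), si-Foxm1 replicate 1 (11 and 29), 2 (21 and 43) or 3 (70 and 65), and si-NC replicate 1 (15 and 30), 2 (23 and 38) or 3 (18 and 41). It gave 0 to 1 members lower in the interaction, 0 to 1 lower with the siRNA and 1 to 2 lower with overexpression. Uncalled values turned sign in ranges of -0.081 to 0.015 for Agtr1a, -0.045 to 0.0039 for Agtrap and -0.030 to 0.034 for Gnaq (Ang-II against si-NC), -0.016 to 0.020 for Gna11 and -0.097 to 0.22 for Rgs4 (siRNA under Ang-II), and -0.15 to 0.017 for Rgs4 (overexpression).

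Same-numbered libraries of different groups gave correlations over 0.1 in 14 of 45 pairs (range -0.08 to 0.18). Of the 18 libraries 14 correlated best with their own number, so the numbers may carry a weak pairing, which the labels do not state. The main fit did not use the replicate numbers. The replicate block gave 5463 genes higher and 1948 lower with the siRNA and changed no member call. Depth limits Agtr2 and Agtr1b.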
